A study of Mus musculus with 31 samples.

Results

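Skeletal muscle fibre genes code for the contractile machinery of voluntary muscle, whereas the muscle layers of the colon wall are smooth muscle. Described here are 10 of them, namely Acta1, Ckm, Mylpf, Tnnt3, Tnni2, Mybpc1, Myh1, Myh2, Tnnc2 and Actn3. They were taken by the gene name given for each probe in the array files, which 18 of the 56605 probes other than controls carried, for 10 of the 24813 genes with a probe. The genes were chosen by their values in the contrast of CRC + E171 with CRC after 7 days, for which the study discussed muscle contraction, and the 7-day values and counts are given below as a description, which supports nothing. RNA of the distal colon of BALB/c mice, a few weeks old at the start, was measured on 31 one-colour Agilent arrays. Every mouse had been given the carcinogen azoxymethane (AOM) by injection and dextran sodium sulphate (DSS), which inflames the colon, in its drinking water, so that all groups, controls too, were a chemically induced colorectal cancer (CRC) model. CRC + E171 mice also received E171, food-grade titanium dioxide, by gavage at 5 mg/kg bw/day, and CRC mice received water. That exposure was read from the title and treatment of each sample, since a more general treatment text, the same for all samples, names the water vehicle alone. Each group of 2, 7, 14 and 21 days held 2 males and 2 females, except CRC at 21 days with 1 male and 2 females. The RNA came from tissue of the distal colon and not from sorted cells, so that fewer fibres and less RNA per fibre cannot be told apart.

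A muscle fibre shortens when thick filaments of myosin pull on thin filaments of actin within repeated units called sarcomeres. The troponin complex on the thin filament keeps myosin from pulling until calcium binds, alpha-actinin anchors the thin filaments at the Z-disc, and creatine kinase renews the ATP that myosin spends. Fast fibres, slow fibres, heart and smooth muscle each use their own forms of many of these proteins, and most of the genes described here belong to the fast fibre program.

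Levels are on a log2 scale on which 0 is the 75th percentile of the processed signals of the array. On each array 67.4 to 78.9% of the spots passed the scanner's test of being well above background. Precision is limited by how many arrays each group has. The arrays lay on 8 slides scanned on 3 days, and no slide held CRC and CRC + E171 arrays of the same day. CRC male 1 of 7 days stood apart from the other arrays in its colon genes as well. Its Epcam level, an epithelial adhesion gene, was 0.99, against 4.75 in CRC female 2 of 7 days and 2.78 to 5.13 in the other 29 arrays. Villin (Vil1), of the brush border, was at -0.88 there, against 2.86 to 6.07 in those 29. In both genes the lowest of those 29 was CRC male 2 of 7 days, a control of the same group. The array labelled CRC male 2 of 14 days had a level of Xist, which is transcribed in females, of -1.60, within the range of the female arrays (-2.34 to -0.70), and sexes are given as labelled.

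The probes shown first are those that carry the signal of the members within the messenger, 4 of them with a match on the genome that is longer than their 60 bases and so crosses an intron. Positions are those of the array annotation, on mm9. The Tnnt3 probe shown crosses an intron but is not the brightest Tnnt3 probe, from which the Tnnt3 levels by array are taken. The Ckm probe lies at chr7:20002222-20004829 on the plus strand, the Mylpf probe at chr7:134356749-134356985 on the plus strand, the Tnnt3 probe at chr7:149698254-149698479 on the plus strand, the Actn3 probe at chr19:4861727-4862212 on the minus strand, and the Acta1 probe, within a single stretch, at chr8:126416197-126416256 on the minus strand.
Ckm probe: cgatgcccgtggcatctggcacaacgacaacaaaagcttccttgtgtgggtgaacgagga
Mylpf probe: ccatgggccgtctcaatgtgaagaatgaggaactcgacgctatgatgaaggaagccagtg
Tnnt3 probe: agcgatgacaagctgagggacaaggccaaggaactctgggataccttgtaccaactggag
Actn3 probe: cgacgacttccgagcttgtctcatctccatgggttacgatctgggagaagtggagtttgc
Acta1 probe: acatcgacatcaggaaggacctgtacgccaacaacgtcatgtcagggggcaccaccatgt
In all, 6 of the 18 probes crossed an intron in this way. Actin genes are near copies of each other, and so are the fast myosin heavy chains, and how far a probe also binds the transcripts of its paralogs was not tested.

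Promoters are shown because the members moved together in single arrays. RefSeq windows on GRCm38.p6, from 250 bases before to 50 bases after the start, were matched for 7 of the 10 genes, namely Acta1, Ckm, Mybpc1, Myh1, Myh2, Mylpf and Tnnc2. Capitals mark the motifs searched on both strands, which were the E-box CAGCTG, the E-box CACCTG, the MEF2 site and the TATA box TATAAA. E-boxes are bound by the myogenic factors of the MyoD family and MEF2 sites by MEF2 factors. The 3 windows shown lie at chr7:19410844-19411143 (plus strand), chr11:67199852-67200151 (plus strand) and chr8:123894726-123895025 (minus strand).
Ckm promoter: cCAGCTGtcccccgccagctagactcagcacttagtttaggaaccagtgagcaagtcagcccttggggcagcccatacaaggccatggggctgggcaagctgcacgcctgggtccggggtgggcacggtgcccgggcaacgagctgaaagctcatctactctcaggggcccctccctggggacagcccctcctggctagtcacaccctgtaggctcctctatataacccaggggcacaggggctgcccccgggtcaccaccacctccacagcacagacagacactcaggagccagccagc
Myh1 promoter: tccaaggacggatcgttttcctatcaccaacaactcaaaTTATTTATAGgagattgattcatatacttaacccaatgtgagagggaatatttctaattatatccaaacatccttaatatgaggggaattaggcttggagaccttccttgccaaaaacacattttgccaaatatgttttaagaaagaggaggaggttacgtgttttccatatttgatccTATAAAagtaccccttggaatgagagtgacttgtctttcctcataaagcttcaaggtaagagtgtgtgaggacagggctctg
Acta1 promoter: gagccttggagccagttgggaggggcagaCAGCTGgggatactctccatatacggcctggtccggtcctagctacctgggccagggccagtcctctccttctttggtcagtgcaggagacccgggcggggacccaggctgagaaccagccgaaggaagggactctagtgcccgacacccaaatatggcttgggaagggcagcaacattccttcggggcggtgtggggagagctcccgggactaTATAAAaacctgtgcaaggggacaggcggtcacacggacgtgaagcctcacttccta
CAGCTG was in the windows of 4 of the 7 genes (Acta1, Ckm, Mybpc1 and Mylpf), against 16.3% of the 32851 promoters of this length. CACCTG was in that of Tnnc2 alone, against 20.2% of all. The MEF2 site was found for Myh1, against 3.19% of all, and TATAAA for Acta1, Myh1 and Myh2, against 13.6%. A match says only that the letters are there.

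All 10 genes had their highest signal in the same array, CRC male 1 of 7 days, where 2601 of the 19797 genes tested had theirs. Averaged over the kept probes of each gene, the level in this array was above the gene's median over the 31 arrays by a median of 8.04 on the log2 scale, and each of the 10 genes was at least 4-fold above its median, where 6.52% of the 19797 genes tested were. In CRC female 2 of 7 days the median over the members was 2.55, and 7 of the 10 genes were at least 4-fold up, where 0.445% of all genes were. The other 29 arrays had medians between -0.84 (CRC + E171 male 2 of 7 days) and 1.45 (CRC female 1 of 21 days). The heat map of the members by array shows the 2 columns. By probe, 17 of the 18 were highest in CRC male 1 of 7 days, and 11 of the 18 were second highest in CRC female 2 of 7 days. None of the 18 spots was saturated on any array (0 of 18). The array above all others was the same for each member under quantile normalization and normexp background correction, and in the authors' values for the 9 members these hold.

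**Figure D1:**
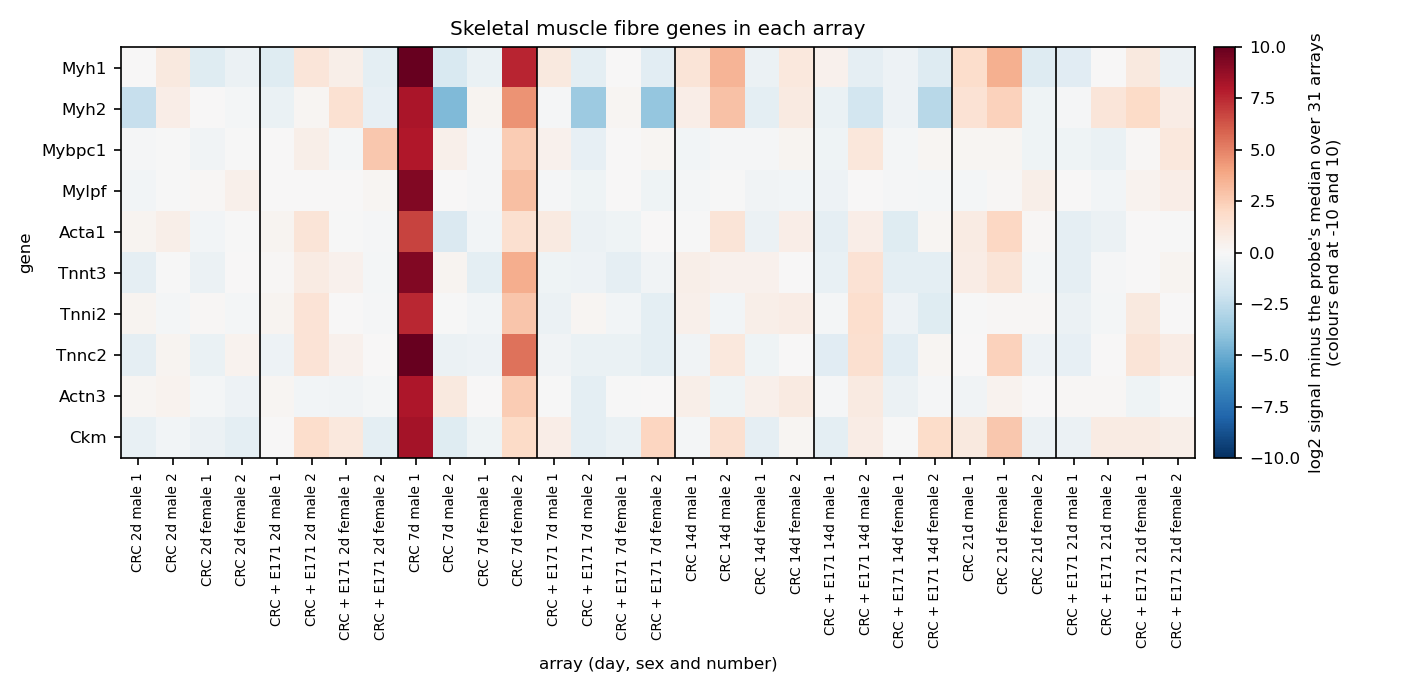
Heat map of the 10 skeletal muscle fibre genes (rows, brightest probe of each) in the 31 arrays (columns, black lines between groups), coloured by the log2 signal minus the probe's median over the arrays. CRC male 1 of 7 days is the darkest red column, with differences from 6.74 (Acta1) to 10.73 (Tnnc2) in the 9 members other than Myh1, which was well above background on 6 of 31 arrays, and CRC female 2 of 7 days is the second.

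Of the thick filament genes, Myh1 codes for a fast myosin heavy chain, the motor of the thick filament. At 7 days its level in the CRC arrays was 6.0 in male 1, -8.91 in male 2, -8.05 in female 1 and 0.25 in female 2. With E171 it was -6.43 and -8.35 in the males and -7.40 and -8.48 in the females. The probe was well above background on 2 of the 4 CRC arrays and on none (0 of 4) of the CRC + E171 arrays, and the signals that were not well above background have no order. Outside 7 days Myh1 ranged from -8.70 to -3.83, and the highest were CRC female 1 of 21 days and CRC male 2 of 14 days. With all days counted, 6 of 15 CRC arrays and 0 of 16 CRC + E171 arrays detected Myh1 above background. Without the 7-day arrays the counts were 4 of 11 and 0 of 12. Myh1 passed the filter, which needed 60% of the arrays of a group, only through CRC at 21 days. The filter and the choice of members at 7 days thus partly set these counts, and nothing is read from them. How many of all genes had such counts was not tested.

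Myh2, the heavy chain of another fast fibre type, was at 4.75 in CRC male 1, -7.86 in male 2, -3.15 in female 1 and 1.07 in female 2 at 7 days. With E171 it was at -3.53, -7.05, -3.25 and -7.34 in the same order. The probe was not well above background on CRC male 2 and on 2 CRC + E171 arrays of 7 days, so that a very low array was found in both groups. Outside 7 days it ranged from -6.18 to -0.50. A second kept probe of Myh2, on a different transcript, moved less, and its 7-day difference between CRC + E171 and CRC was -0.36 (SE 0.52) where that of the brightest probe was -3.99 (SE 1.59).

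Mybpc1 codes for myosin-binding protein C of slow fibres, which is also made in many fast fibres and links thick to thin filaments. It was at 4.00, -3.53, -4.12 and -1.5 in CRC males 1 and 2 and females 1 and 2 of 7 days, and at -3.59, -4.82, -4.03 and -3.84 with E171. Outside 7 days its highest array was CRC + E171 female 2 of 2 days at -1.37, close to CRC female 2 of 7 days. Of the 4 Mybpc1 probes 3 did not pass the filter, and they too were highest in CRC male 1 of 7 days.

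Mylpf codes for the regulatory light chain of fast myosin and had the narrowest range of the members over the arrays of other days. Its level was 6.07, -3.20, -3.29 and -0.21 in the CRC arrays of 7 days and -3.34, -3.61, -3.19 and -3.62 with E171. The 23 arrays of other days lay between -3.72 and -2.59. A second Mylpf probe, for a predicted transcript and placed upstream, did not follow, with a range of -5.01 to -3.03 over the 31 arrays and its highest value in CRC male 2 of 2 days. Because probes of a gene were averaged, the fitted 7-day difference of Mylpf (-1.69, SE 0.58) is smaller than that of the brightest probe (-3.28, SE 1.08).

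Among the thin filament genes, Acta1, the skeletal muscle actin, was at 7.17, -1.06, 0.15 and 2.01 in CRC males 1 and 2 and females 1 and 2 of 7 days. With E171 it was at 1.30, -0.14, -0.03 and 0.44. CRC female 2 was above each CRC + E171 array of 7 days but below CRC female 1 of 21 days, which reached 2.51. CRC male 2, the lowest of the 31 arrays in Acta1, was thus in the same group as the highest.

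The troponin genes code for the calcium switch of fast fibres. Tnnt3, which ties the complex to tropomyosin, was at 7.15, -1.90, -3.10 and 1.51 in the CRC arrays of 7 days and at -2.54, -2.62, -3.01 and -2.48 with E171. All 3 Tnnt3 probes gave the same picture, with 7-day differences of -3.58 (SE 1.18), -4.22 (SE 1.47) and -4.85 (SE 1.61). Tnni2, the inhibitory subunit, was at 7.64, 0.05, -0.18 and 2.87 in the CRC arrays and at -0.46, 0.32, -0.21 and -0.90 with E171. Here CRC male 2 and female 1 fell within the range of the CRC + E171 arrays.

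Tnnc2, the calcium-binding subunit, was at 7.47, -3.88, -3.79 and 2.15 in the CRC arrays of 7 days and at -3.62, -3.95, -3.96 and -4.24 with E171. Outside 7 days the troponins had their highest arrays in CRC + E171 male 2 of 14 days (Tnnt3 at -0.71 and Tnni2 at 1.79) and in CRC female 1 of 21 days (Tnnc2 at -0.98). These second-tier values stayed well below those of CRC female 2 of 7 days for Tnnt3 and Tnnc2, at 1.51 and 2.15.

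Actn3, the alpha-actinin of the Z-disc in fast fibres, was at 3.1, -3.96, -4.96 and -2.39 in the CRC arrays of 7 days and at -5.00, -5.91, -5.00 and -4.94 with E171. The arrays of other days lay between -5.52 and -4.06, so that CRC male 2 of 7 days was also slightly above them. Ckm, the muscle creatine kinase, was at 4.97, -4.57, -3.78 and -1.43 in the CRC arrays and at -2.65, -4.28, -3.99 and -1.21 with E171. For Ckm the second array was not CRC female 2 of 7 days, since CRC female 1 of 21 days reached -0.64 and CRC + E171 female 2 of 7 days -1.21.

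Ordered by group means of the brightest probe, CRC at 7 days was first for all 10 members. For the 9 members other than Myh1, whose lowest group was not well above background on any array, the next group lay above the lowest by 0.41 (Mylpf) to 2.96 (Myh2) on the log2 scale, while CRC at 7 days lay above the lowest by 2.01 (Acta1) to 4.43 (Tnnc2). Each pair of neighbours in that order overlapped in its arrays, for 7 of 7 pairs of each gene. The SD within CRC at 7 days was 3.59 (Actn3, n = 4) to 5.44 (Tnnc2, n = 4) in the 9 members other than Myh1, and for Tnnc2 the mean was 0.49 ± 5.44 (SD, n = 4) against -3.94 ± 0.25 (SD, n = 4) with E171. Between CRC + E171 and CRC at 7 days, the differences of group medians of these probes had a median over the members of -1.81, and those of group means -3.22.

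**Figure D2:**
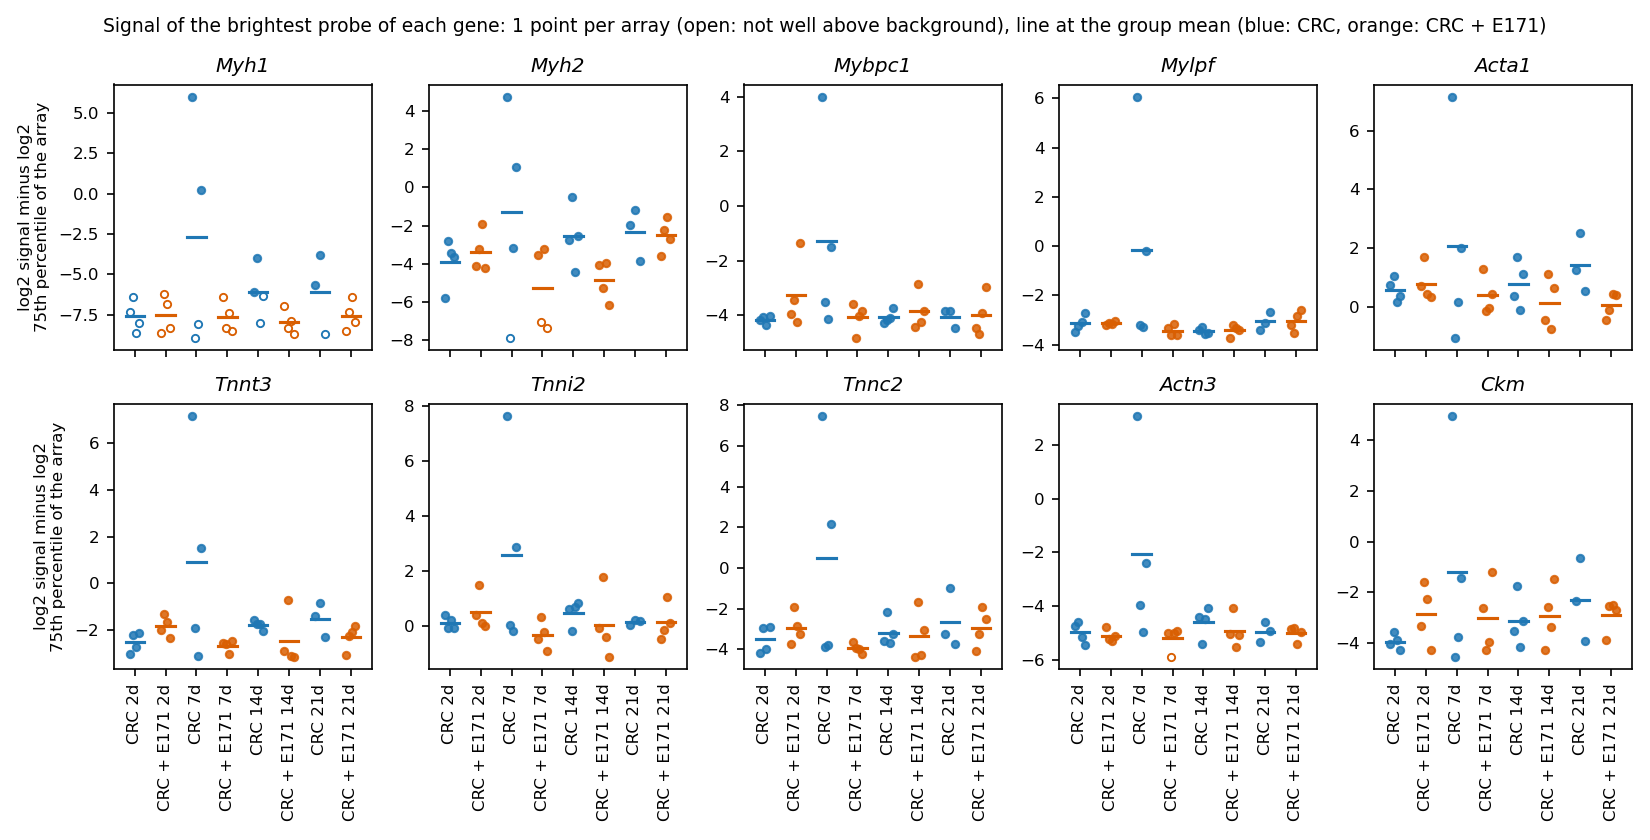
Log2 signal of the brightest probe of each member, minus the log2 75th percentile of the array, by group, with 1 point per array and a line at the group mean (CRC in blue, CRC + E171 in orange). In CRC at 7 days male 1 lies above the CRC + E171 arrays of 7 days for all 10 members and female 2 for 9 of 10, while female 1 lies among them for 7 of the 9 members other than Myh1. Open points, among them those of Myh1 in CRC male 2, CRC female 1 and all CRC + E171 arrays of 7 days, and of Myh2 in CRC male 2 and 2 of those CRC + E171 arrays, were not well above background and have no order.

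At 7 days all 10 members were lower in CRC + E171 than in CRC by the group means, and 8 of the 10 were past the thresholds used here for a DEG, a linear fold change of 1.5 and an unadjusted p under 0.05. The study's text prints its fold-change threshold of 1.5 as a log2 value, and with a log2 fold change of 1.5 the count was also 8 of 10. Fitted on the 8 arrays of 7 days alone, with the spread taken from these arrays, 0 of 10 were past the thresholds at the same log2 differences, where 4.78% of all genes were past them. Of all genes tested 12.4% were past the thresholds and 5.48% of all genes were past them and lower, and nothing is read from the members' count, since this contrast chose them. The fitted log2 differences were -4.22 for Tnnt3 (SE 1.40), -4.43 for Tnnc2 (SE 1.45), -3.16 for Actn3 (SE 0.92), -2.91 for Tnni2 (SE 0.98) and -2.78 for Mybpc1 (SE 1.01). Myh2 had -2.18 (SE 0.93), and the 2 members outside the thresholds were Ckm with -1.83 (SE 1.27) and Acta1 with -1.68 (SE 0.99). Just inside them was Myh2. For Myh1, whose CRC + E171 arrays were not well above background, the mean of CRC (-2.68) was at least 12.7-fold above the detection bound of the CRC + E171 arrays. In no member were the arrays of both groups apart (0 of 10, where 4.85% of all genes were).

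The fitted differences were also computed without single CRC arrays of 7 days. Without CRC male 1 the median over the members was -1.12, against -2.84 with all arrays, and the members ranged from -2.10 (Tnnc2) to 0.23 (Ckm). Without CRC female 2 alone it was -2.83, and all 10 members were still lower with E171. Without both, a choice made after the values were seen, the median was -0.15, the members ranged from -0.75 (Actn3) to 1.14 (Ckm), and 3 of the 9 members other than Myh1 (Acta1, Ckm and Myh2) were higher with E171. Myh1 was then well above background on none of the 7-day arrays, and without it the median was -0.20. Both arrays were picked for their high signals, so a smaller difference without them follows from that choice. Leaving out CRC male 2 or female 1, which were low in most members, moved the median to -3.64 and -3.78. With Myh1 at its bound the median from all arrays stayed at -2.84.

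**Figure D3:**
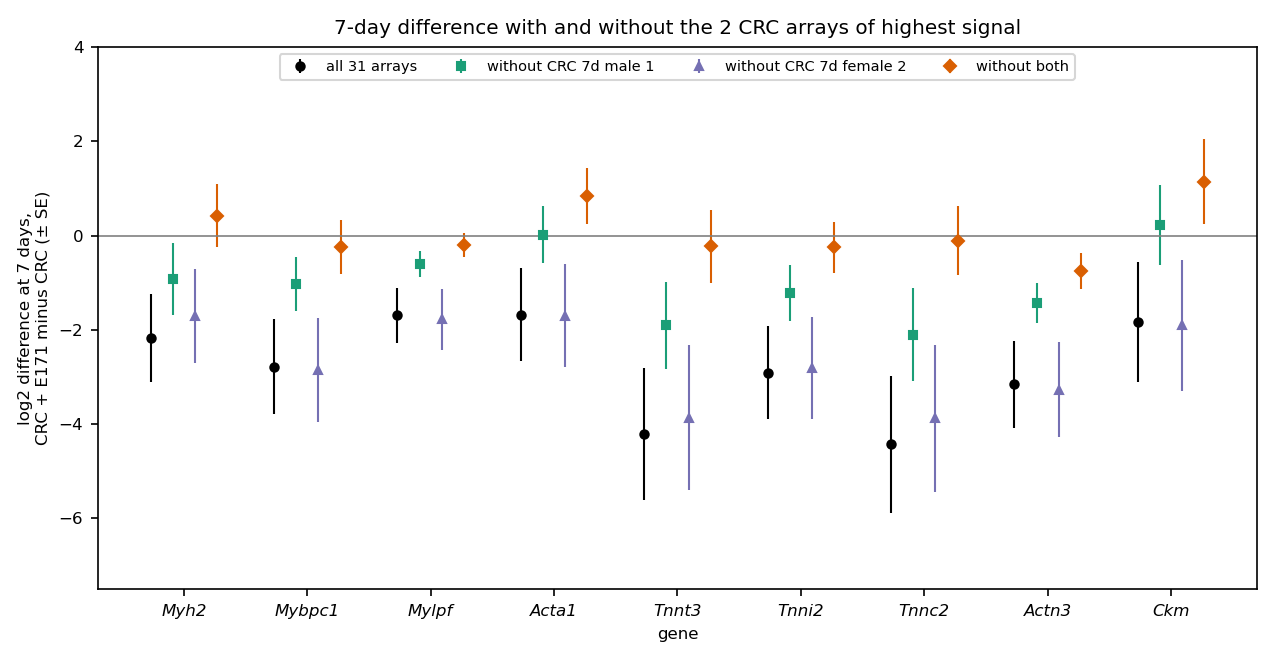
Fitted log2 difference between CRC + E171 and CRC at 7 days for the 9 members other than Myh1, with error bars of 1 SE, from all 31 arrays and without CRC male 1, without CRC female 2 or without both. The black points lie between -4.43 (Tnnc2) and -1.68 (Acta1), and the orange points without both arrays between -0.75 and 1.14.

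High and low CRC arrays of 7 days shared slides. On the slide of CRC male 1 (median excess 8.04), CRC female 1 was at -0.36 and the 2 CRC + E171 arrays of 21 days at 0.48 and -0.57. On the slide of CRC female 2 (2.55), CRC male 2 was at -0.34 and the 2 CRC + E171 arrays of 21 days at 0.31 and 0.00. Each slide thus held a high and a low array of the same group.

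The comparisons at 2, 14 and 21 days did not enter the choice of genes, and in none of them had a member an unadjusted p under 0.05 in limma (0 of 10 each). After 2 days of exposure 0 of 10 members were DEG, against 1.72% of all genes (0.172% lower), and the arrays of the groups overlapped for each member (0 of 10 apart, against 3.91% of all genes), with a median log2 fold change of 0.47 and 8 of 10 higher with E171, among them Myh1, which was well above background on no array of either group. Without CRC + E171 male 2 of 2 days that median was 0.13. The largest was Ckm with 1.08 (SE 1.27, adjusted p = 0.999 from limma), whose CRC arrays were at -4.06, -3.60, -3.92 and -4.28 and whose CRC + E171 arrays were at -3.33, -1.60, -2.27 and -4.31. Two-sided limma tests with Benjamini-Hochberg adjustment over all 19797 genes were used for each such comparison. After 21 days 0 of 10 were DEG, against 2.67% of all genes (1.82% lower), with a median of -0.24, or -0.12 with Myh1 at its bound. Without CRC female 1 of 21 days the median turned to 0.13, and without CRC female 2 of 21 days it was -0.66.

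After 14 days 0 of 10 members were DEG, against 6.34% of all genes (3.1% lower), with a median of -0.39 and 3 of 10 higher. The median was -0.29 with Myh1 at its bound, -0.85 without CRC + E171 male 2 of 14 days and -0.22 without CRC + E171 female 1 of 14 days. Myh2 came nearest, with a log2 fold change of -1.91 (SE 0.93, unadjusted p = 0.0501, adjusted p = 0.623 from limma). By probe, Myh2 had -2.31 (SE 1.59) for the brightest and -1.52 (SE 0.52) for the second kept probe, on a different transcript. Myh2 thus came near the thresholds mainly through that second probe, whose 7-day difference was only -0.36 (SE 0.52). Its brightest probe was at -2.77, -0.50, -4.43 and -2.53 in the CRC arrays and at -4.08, -5.25, -3.96 and -6.18 in the CRC + E171 arrays, which overlapped, while the mean of its kept probes did not overlap (1 of 10 members, where 5.9% of all genes did not overlap). The highest of these, at -0.50, is the array labelled male whose Xist level was female-like, and without it the effect was -1.61. Myh1 was at -6.08, -4.01, -7.99 and -6.32 in CRC and at -6.97, -8.30, -7.88 and -8.70 with E171, where no array was well above background (0 of 4, against 2 of 4 in CRC), so that CRC was at least 1.19-fold higher (adjusted p = 0.854 from limma).

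Acta1 was the member with no overlap at 21 days (1 of 10, where 8.01% of all genes did not overlap). Its CRC arrays were at 1.24, 2.51 and 0.52 and its CRC + E171 arrays at -0.47, -0.13, 0.42 and 0.40. With limma the log2 fold change came to -1.37 with an SE of 1.07 (adjusted p = 0.916), and with each array left out in turn it ranged from -1.82 to -0.82. The other members at 21 days went from -1.17 (Tnnt3) to 0.13 (Mylpf), without Myh1, which was well above background on 2 of 3 CRC arrays and 0 of 4 CRC + E171 arrays and whose CRC mean did not exceed the detection bound.

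The spread behind these tests was shared by the 8 groups, and CRC at 7 days added most to it. Fitted on the arrays of the compared groups alone, the standard errors of the members were smaller by a median ratio of 2.89 at 2 days, 2.35 at 14 days and 2.28 at 21 days. In that fit, again with limma, the unadjusted p of Myh2 at 14 days was 0.00091 with an SE of 0.38 (adjusted p = 0.211) and that of Myh1 was 0.0434 (adjusted p = 0.532). For Acta1 at 21 days it was 0.0212 (adjusted p = 0.845), so that 2 members at 14 days, 1 of them Myh1 with no CRC + E171 array above background, and 1 at 21 days passed the DEG thresholds, where in that fit 7.32% and 4.02% of all genes did. Of 15 other settings, 8 made Myh2 a DEG at 14 days, where 5.47% to 13.3% of all genes were, and so did the omission of any 1 of 7 arrays. Among these 7, all but CRC female 1 of 14 days were 7-day arrays. Omitting a 7-day array left the effect at -1.91 and changed only the spread. The effect of Myh2 ranged from -2.31 to -0.97 over the 15 settings, and the smallest adjusted p among them was 0.174.

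Slides of 2 and 14 days held CRC arrays of one day and CRC + E171 arrays of the other, so the mean effect over both days could be fitted within slides. In this model 1 of 10 members was a DEG, against 3.01% of all genes (0.869% lower). This member was Myh2 with -0.67 (SE 0.27, unadjusted p = 0.0308, adjusted p = 0.464 from limma). By probe, Myh2 had -0.88 (SE 0.62) for the brightest and -0.45 (SE 0.17) for the second kept probe. With no filter, with the highest probe of a gene or without the array labelled CRC male 2 of 14 days, whose Xist level was female-like, it was not a DEG (0 of 10 each). The median over the members was -0.08. It was -0.35 without CRC + E171 male 2 of 14 days and turned to 0.08 without CRC + E171 female 2 of 14 days. The effect of E171 did not pass the thresholds as a difference between 2, 14 and 21 days for any member (0 of 10, against 4.39% of all genes, 2.99% negative).

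Days and sexes were compared in the same way. Among CRC arrays of 2, 14 and 21 days 0 of 10 members differed between days by the DEG thresholds, against 3.12% of all genes (1.43% with a negative change), and among CRC + E171 arrays 0 of 10, against 12.1% (8.29% negative). Here Myh2 was again nearest (adjusted p = 0.361 for the gene mean from limma). With E171 the group means of its brightest probe were -3.37 ± 1.08 (SD, n = 4) after 2 days, -4.86 ± 1.05 (SD, n = 4) after 14 days and -2.52 ± 0.86 (SD, n = 4) after 21 days. Between males and females 0 of 10 members were DEG, against 2.98% of all genes (1.82% lower in males), and 0 of 10 passed an adjusted p of 0.05, against 0.0556%. By their direction, 9 of 10 were higher in males with a median of 0.39. Without CRC male 1 of 7 days that median was -0.13. The sex comparison included the 7-day arrays, whose values chose the members, so nothing is read from its count.

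Other genes of muscle, in 8 lists with 82 genes tested outside the members, were high in the same arrays to different degrees. In CRC male 1 of 7 days 54 of the 82 were at least 4-fold above their median, where 6.52% of all genes were. Of the 82, 65 had their highest array there, as did 2601 of the 19797 genes tested. Of the other fast fibre genes 9 of 10 were at least 4-fold up, led by Myoz1 of the Z-disc (704-fold), Mybpc2, the fast myosin-binding protein C (432-fold), and the calcium buffer Pvalb (124-fold), while Myoz3 was 2.72-fold up. In CRC female 2 the same 4 genes were 11.8-fold, 6.47-fold, 4.15-fold and 1.95-fold above their medians.

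Slow fibre genes differed among themselves, with 3 of 8 at least 4-fold up in CRC male 1. The light chain Myl3 was 1377-fold above its median there and 31.5-fold in CRC female 2, and Myh7b was 21.6-fold up in CRC male 1. Slow troponin T, Tnnt1, was 2.05-fold above its median. Tnni1, slow troponin I, had one of its lowest levels there, at 0.0454 of its median, with 1 array lower. Of the cardiac genes 0 of 8 were 4-fold up, with Nppa, an atrial peptide, at 1.39-fold, and atrial light chain Myl7 was at 0.812 of its median. The perinatal myosin Myh8 was 299-fold above its median in CRC male 1 and 22.5-fold in CRC female 2.

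Of the sarcomere scaffold 17 of 20 genes were at least 4-fold up in CRC male 1, among them Myot (at least 664-fold), Tcap (538-fold) and Myom2 (384-fold), with Nebl at 3.34-fold. Genes that couple excitation to contraction had 10 of 13, with the calcium pump regulator Sln at 4821-fold, the calcium channel subunits Cacng1 at 241-fold or more and Cacna1s at 42.0-fold, and Asph at 1.26-fold. Muscle energy genes had 9 of 12, with Pgam2 of glycolysis at 1221-fold, Cox6a2 at 160-fold and Ckmt2 at 20.8-fold, and Phka1 at 0.739. Myogenic and neuromuscular genes had 5 of 10, with the factors Myf6 at 203-fold or more and Myog at 7.79-fold or more, Chrnb1 at 2.05-fold and Msc at 1.22-fold. In CRC female 2 these 4 lists had 7, 2, 1 and 1 genes at least 4-fold up, or 6, 2, 1 and 0 with the bound described next. Myot, Cacng1, Myf6 and Myog were well above background on 8, 6, 14 and 10 of the 31 arrays, and for these 4 the fold was taken against a median in which no array counted lower than its detection bound. With all 8 such genes of the 82 so treated, 53 of the 82 were at least 4-fold up in CRC male 1 and 14 of the 82 in CRC female 2.

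**Figure D4:**
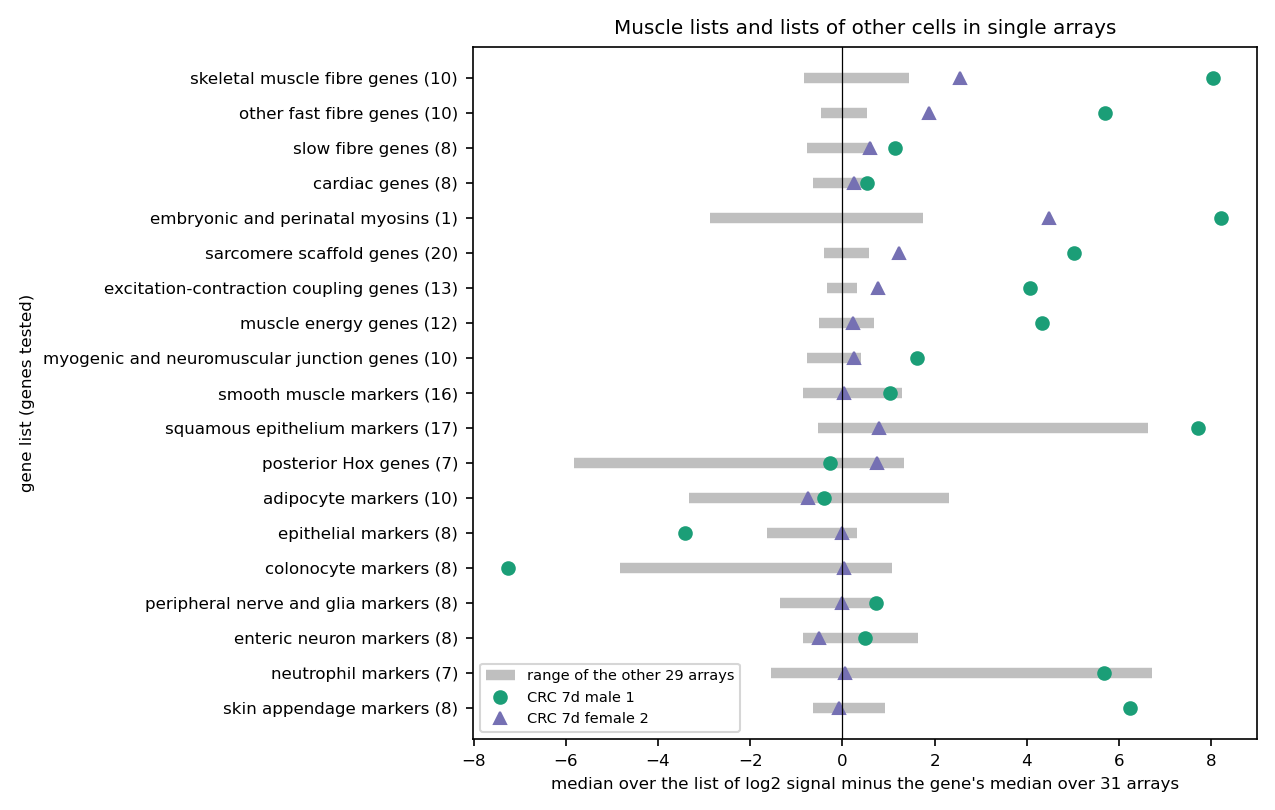
Median over each gene list of the log2 signal minus the gene's median over 31 arrays, for CRC male 1 of 7 days (green circle), CRC female 2 of 7 days (purple triangle) and the other 29 arrays (grey bar from lowest to highest). The members lie at 8.04 and 2.55, outside the grey bar of -0.84 to 1.45. The cardiac list lies at 0.54, slightly above its grey bar of -0.63 to 0.45, and at 0.24, within it.

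In the comparisons of other days the 82 genes gave few calls. At 2 and 14 days 0 of 82 were DEG, against 1.72% and 6.34% of all genes, and at 21 days 2 of 82 (2.44%) were, against 2.67% of all genes. Both were lower with E171, namely Musk (log2 fold change -1.14, SE 0.48) and Chrne (-1.0, SE 0.40), each with an adjusted p of 0.854 from limma. At 7 days 32 of 82 were lower and 2 were higher by the DEG thresholds, where 5.48% of all genes were lower, a description that rests on the same CRC arrays as that of the members.

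Markers of other tissues moved in the same arrays. Of the 17 squamous epithelium markers tested 15 were at least 4-fold up in CRC male 1 of 7 days, with a median excess of 7.72, and Krt5, a keratin of basal squamous cells, was 901-fold up. In CRC female 2 the squamous median was 0.80 with 5 of 17 up. The 29 others ranged from -0.53 to 6.64, and 4 arrays with squamous medians of 2.56 to 6.64, CRC + E171 male 2 of 2 days, CRC + E171 male 2 of 14 days, CRC + E171 female 1 of 21 days and CRC female 1 of 21 days, had member medians of 1.23, 0.81, 0.48 and 1.45. In the last of these 5 of 10 members were at least 4-fold above their median, where 1.65% of all genes were, and all 4 lay below CRC female 2 of 7 days in the members. The array labelled CRC male 2 of 14 days had a member median of 1.11 with a squamous median of -0.28.

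Skin appendage markers, mostly keratins of hair, were at least 4-fold up for 7 of 8 in CRC male 1 (median excess 6.24), and for 0 of 8 in CRC female 2 (-0.08). Neutrophil markers were up for 7 of 7 in CRC male 1 (5.68), but reached 6.72 in CRC male 2 of 7 days, where the members were low. Smooth muscle markers, of the muscle that the colon wall does hold, had a median excess of 1.04 and 0.04 in CRC male 1 and female 2 and 1 and 0 of 16 genes at least 4-fold up. Colonocyte markers were at -7.25 in CRC male 1, below all other arrays, and at 0.04 in CRC female 2. The lowest of the other 29 arrays in these markers was CRC male 2 of 7 days, at -4.82. Nerve and glia markers (0.72 and -0.01), enteric neuron markers (0.50 and -0.50) and adipocyte markers (-0.41 and -0.75) lay within the range of the other 29 arrays. Posterior Hox genes, which mark the hind end of the gut, had a median excess of -0.28 in CRC male 1 and 0.75 in CRC female 2, and of -5.82 in CRC + E171 female 1 of 14 days. Within that list Hoxb13, Hoxa13 and Hoxd13 were at -4.25, -2.65 and -1.89 against their medians in CRC male 1, where 3, 3 and 6 arrays were lower. The part of these tissues in the result was not tested.

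**Figure D5:**
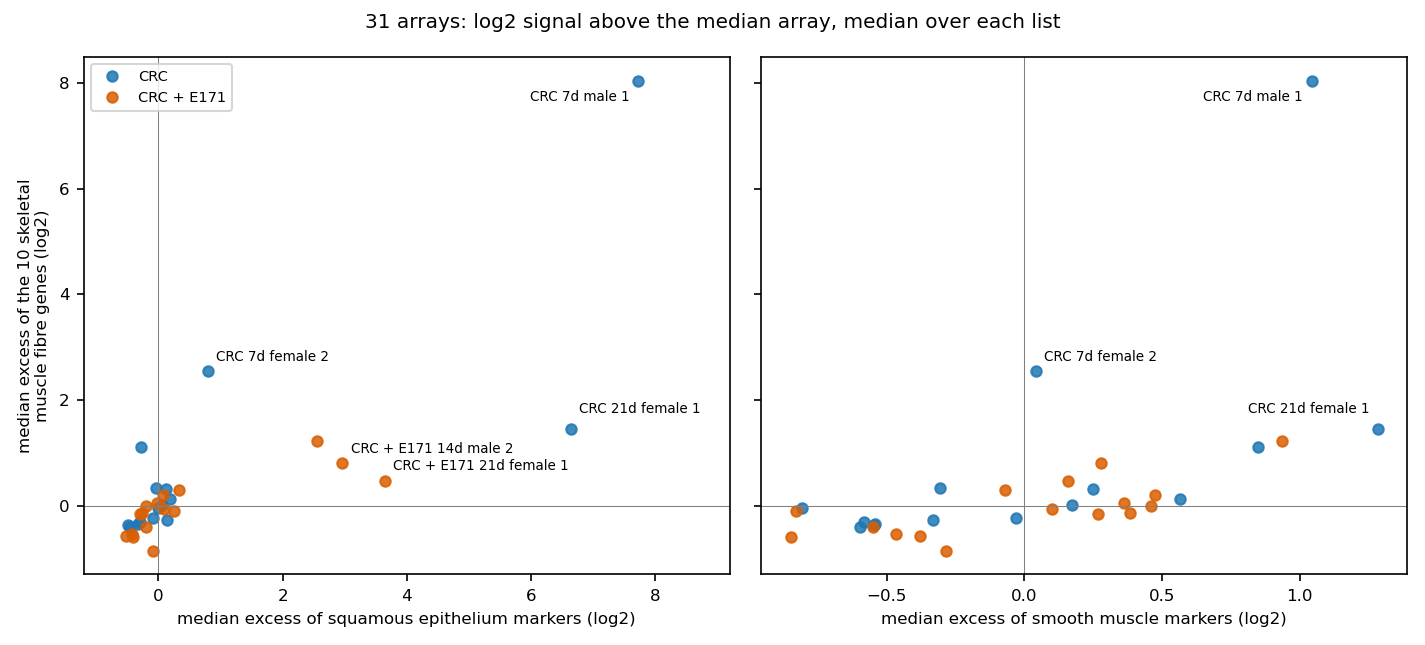
Each of the 31 arrays by the median excess (log2) of the 10 members, on the vertical axis, and of the squamous epithelium markers (left) or the smooth muscle markers (right), on the horizontal axis, with CRC in blue and CRC + E171 in orange. CRC female 1 of 21 days has a squamous median of 6.64 and a member median of 1.45, and CRC female 2 of 7 days has 0.80 and 2.55.

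Members were correlated with each other across arrays to different degrees once the 2 high arrays were left out. With all arrays Pearson's r of each member with the mean of the other 9, over 31 arrays that share groups and slides, was 0.80 (Myh2) to 0.98 (Tnnc2). Without CRC male 1 and female 2 of 7 days it was 0.85 for Tnnc2, 0.80 for Acta1, 0.76 for Tnnt3, 0.65 for Myh1, 0.59 for Myh2 and 0.54 for Ckm, and 0.35 for Tnni2, 0.20 for Mybpc1, 0.06 for Actn3 and -0.04 for Mylpf. The 15 other genes most like the members by Pearson's r (0.90 to 0.95) held 9 genes of the muscle lists, with Pygm, the muscle glycogen phosphorylase, at 0.94, the giant sarcomere spring Ttn at 0.94, Myl3 at 0.94, Myoz1 at 0.93 and the calcium release channel Ryr1 at 0.92. The highest, at 0.95, was Gm35107, which is in none of the lists. Without the 2 arrays r of these 15 was 0.07 to 0.78, with Ttn at 0.21, Pygm at 0.60 and Gm35107 at 0.78. The 15 genes highest by Spearman's rho, which uses ranks, held none of the muscle lists (0 of 15), and shared 0 of 15 with the first. The 15 highest by Pearson's r without the 2 arrays held 1 gene of the muscle lists and also shared 0 of 15 with the first.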

How the data were processed

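RNA of the distal colon was hybridised to 31 one-colour Agilent arrays, whose deposited files hold spot intensity values that the authors' scanner software (Agilent Feature Extraction 10.7.3.1) had background-subtracted and detrended within each array. The authors' own table of normalized log2 values was deposited too and served only as an alternative. Here the processed signal was scaled to the 75th percentile of each array and taken to log2. Of 56605 probes other than controls, 42787 were kept, which needed a mean log2 signal of at least 4 in a group and unflagged spots well above background on at least 60% of the arrays of that group. Gene names came from RefSeq accessions for 32994 probes, from symbols for 10224 and from synonyms for 520, and 12867 stayed unnamed. Members were matched by the gene name in the array files. Kept probes of a gene were averaged for tests, and levels by array are those of the brightest kept probe.

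Differences were fitted with limma 3.58.1 in R 4.3.3 over 8 group means of 31 arrays, with empirical Bayes and Benjamini-Hochberg adjustment over 19797 genes, and the fit was tested on simulated data. A DEG had a linear fold change of 1.5 and an unadjusted p under 0.05. The study's methods use the same numbers but print the fold-change as log2, which was run as an alternative. Where a group was not well above background on any array, the fold between groups was given as a bound, and the signals of such arrays are printed as measured. The members and gene lists were chosen with earlier results of these data known. Every member is named. Other genes were taken from up to 4 per list with the widest range over the arrays, or for muscle lists also the narrowest, and not all of them are printed. Alternatives covered scaling, normexp background (offset 50), filters, probes of a gene, sex, replicate block, slide, scan day, variance model, array weights, arrays in the fit and each array left out.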

Additional observations from a re-analysis of the deposited data

Results flagged for a closer look

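In 3 of the 70 checks of single arrays within groups of 4, the gap between the extreme array and its nearest neighbour, as a share of the range of the group, was above Dixon's critical value, where chance gives about 5% of checks. For Ckm in CRC + E171 at 21 days, male 1 was the low array at -3.90 (ratio 0.854). For Tnnt3 in CRC + E171 at 14 days, male 2 was the high array at -1.70 for the mean of its probes (ratio 0.912). For Actn3 in CRC + E171 at 7 days, male 2 was the low array at -5.91 (ratio 0.936), and its spot was not well above background. CRC at 7 days, with 2 high arrays, did not meet this criterion for any member.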

How the results depend on the processing

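Values here are members past the DEG thresholds, of 10 unless stated, and those at 7 days only describe the contrast that chose the genes. With an adjusted p under 0.05 the counts were 0 at 7 days and 0 for the mean effect within slides. That mean effect also had 0 with a log2 fold change of 1.5, with no filter, with the highest probe of a gene and without the array labelled CRC 14 days male 2. At 14 days 1 member (Myh2) passed under quantile normalization, a stricter filter (9 tested), the authors' values (9 tested), scan day as a block and robust empirical Bayes with an intensity trend, where 5.47% to 8.86% of all genes did. Array weights gave 1 at 14 days (13.3% of all genes), 1 at 21 days (6.93%), 1 for days among CRC arrays (13.8%), 1 for days among CRC + E171 arrays (18.2%) and 2 within slides (7.87%). With only the arrays compared, the counts were 2 at 14 days (7.32%), 1 at 21 days (4.02%), 0 at 7 days (4.78%), 1 for days among CRC arrays (7.34%), 1 for days among CRC + E171 arrays (2128 of 19797 genes) and 1 for the difference between days (5.81%). Without both CRC male 1 and female 2 of 7 days, chosen after seeing the data, they were 2 at 14 days (7.28%), 1 at 21 days (2.97%), 0 at 7 days (9.23%), 1 for days among CRC + E171 arrays (13.5%) and 1 for the difference between days (5.24%). Leaving out each array in turn gave 0 to 1 at 14 days (4.46% to 10.76% of all genes), 0 to 1 at 21 days (2.22% to 4.5%), 4 to 10 at 7 days (4.63% to 20.1%), 0 to 1 for days among CRC + E171 arrays (9.64% to 14.3%) and 0 to 1 within slides (2.12% to 5.44%), and 0 to 0 elsewhere. In their deviations, same-numbered arrays correlated at 0.21 to 0.48 at 21 days, where the numbers may pair them, and at -0.18 to 0.43 at the other days, where each day had a pair near or below 0. The replicate block gave 8 at 7 days and 0 in the other comparisons it was run for. For the mean effect within slides, the replicate block, the slide and scan day blocks and the fit of the compared arrays only were not run. Of 1374 recomputed member effects at 2, 14 and 21 days, 44 had another sign. Where a cause is not plain from the setting, it was not tested.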
